A study of Mus musculus with 4 samples.

Results

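The A-class ephrins and Eph receptors are the 10 genes Efna1, Efna2, Efna3, Efna4 and Efna5, which encode ligands, and Epha1, Epha2, Epha3, Epha4 and Epha7, which encode receptors. They were read in Flk-1 positive cells sorted by an Etv2 reporter, and make up 10 of the 18193 genes measured. Of the probe sets annotated to a single gene symbol, each gene was read on the one brightest on average over the 4 arrays, so its brightness is a choice and not a result. The genes carry 26 such probe sets in all, and the other 16 are given beside the chosen ones. The 10 genes were chosen by earlier results of these arrays, the differences in log2 level between the 2 populations, so the differences below describe these genes and give no independent support for a direction.

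Flk-1+/Etv2+ cells (2 arrays) were compared with Flk-1+/Etv2- cells (2 arrays), numbered 1 and 2 in the labels. Both populations came from 1 mouse embryonic stem cell line, TT2, in which 1 Etv2 allele carries a knocked-in gene for the fluorescent protein Venus, so neither population had 2 intact Etv2 alleles. The stem cells differentiated in co-culture with OP9 stromal cells, which come from mouse bone marrow, and the sample labels give day 5, while the series text gives a range of days. Flk-1 (the product of Kdr) is a VEGF receptor found on early mesoderm, and Etv2 belongs to the ETS family of transcription factors and drives the blood and endothelial lineages. No source used here says that the arrays of a group came from separate cultures, so p-values measure the spread between arrays, which may be technical. Values are log2 expression per probe set as the authors processed them with RMA, a method that corrects background, normalizes arrays and summarises probes. Values of different probe sets are not set against each other, since probes differ in brightness.

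Eph receptors are tyrosine kinases of the cell surface that are activated by ephrins on a neighbouring cell. A-class ephrins are held in the membrane by a glycolipid anchor, B-class ephrins by a transmembrane segment, and each class binds mainly the receptors of its own class. Signals run into the receptor cell and also back into the ephrin cell, and commonly make cells round up, repel each other or sort into separate groups. The family is known for axon guidance, for the boundaries between somites and hindbrain segments, and for vessel growth.

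All 5 ephrins and all 5 receptors had a lower mean in the Etv2-positive cells than in the Etv2-negative cells, by 0.06 to 1.33 log2 units, with a median difference of -0.72 against 0.01 over all genes. Efna3, Epha1 and Epha4 were at least 2-fold lower (0.423% of all genes were), Efna4, Epha7 and Efna1 stood between 1.62-fold and 1.71-fold lower, and Efna5, Efna2, Epha2 and Epha3 differed less. Both Etv2-positive arrays lay below both Etv2-negative arrays for 8 of the 10 genes, a pattern seen for 17% of all genes and for 17.8% of those with a mean of at least 6. No member was called by limma after Benjamini-Hochberg adjustment over the 18193 genes at 0.05, where 0 genes (0%) were called lower and 0 (0%) higher. At an unadjusted p under 0.05 there were 7 members lower and 0 higher, against 4.64% and 7.07% of all genes. Since the members were picked with these differences known, nothing is read from those shares. When the probe sets of each gene were averaged, the median of the members was -0.34. In RNA from sorted populations, fewer cells of a kind and less RNA per cell cannot be told apart, and markers of primitive streak, paraxial and lateral plate mesoderm were also mostly lower in the Etv2-positive cells, with the values given at the end.

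**Figure D1:**
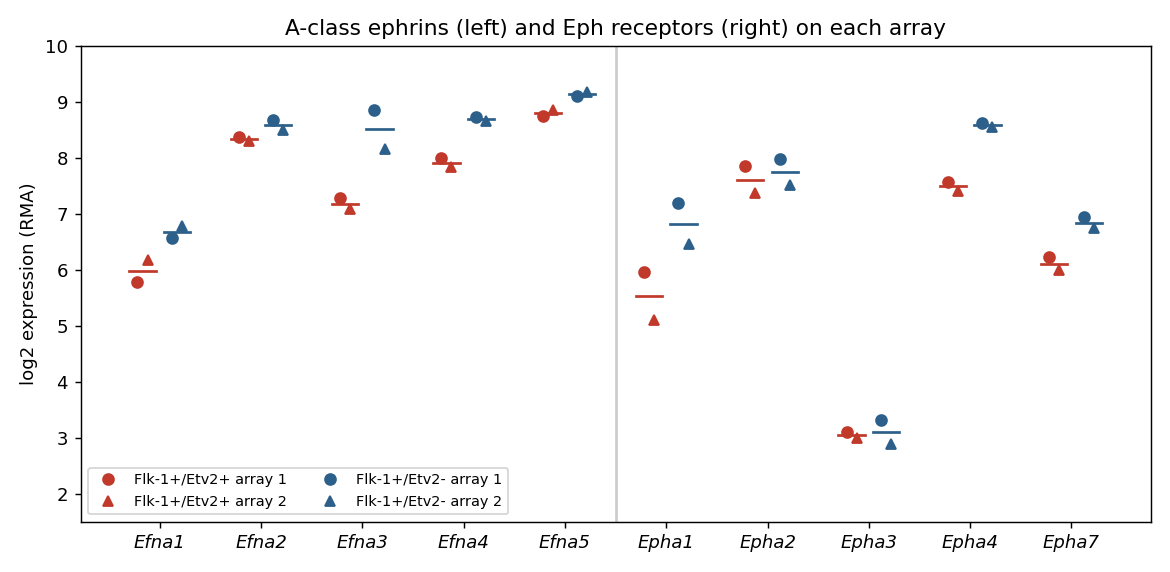
Log2 expression of the 10 genes on each array, Flk-1+/Etv2+ in red left of Flk-1+/Etv2- in blue, with circles for array 1, triangles for array 2 and bars for the means of 2 arrays. The groups do not overlap for 8 genes, and overlap for Epha2 and Epha3.

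The upstream sequences of 4 genes are shown because 3 of them, Efna1, Efna3 and Efna4, are neighbours on chromosome 3 that were lower together, and Epha4 was the member furthest from 0 relative to its error. Each is the stretch of 250 bases before the annotated start, from RefSeq on build GRCm38.p6, read 5′ to 3′ on the gene's minus strand, at chr3:89280952-89281201 for Efna1, chr3:89322940-89323189 for Efna3, chr3:89338029-89338278 for Efna4 and chr1:77515089-77515338 for Epha4. Capitals mark matches on either strand to CCGGAA or CAGGAA (ETS factors), GGTGTGA (T-box factors) or CTTTGA (Tcf/Lef factors), letters that were chosen after the values were seen and do not overlap one another in these stretches.
Efna1: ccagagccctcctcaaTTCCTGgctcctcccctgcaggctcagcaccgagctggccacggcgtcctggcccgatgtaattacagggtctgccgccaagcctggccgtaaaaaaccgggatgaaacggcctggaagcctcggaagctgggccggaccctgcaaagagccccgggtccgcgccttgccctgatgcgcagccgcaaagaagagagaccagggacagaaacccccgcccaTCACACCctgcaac
Efna3: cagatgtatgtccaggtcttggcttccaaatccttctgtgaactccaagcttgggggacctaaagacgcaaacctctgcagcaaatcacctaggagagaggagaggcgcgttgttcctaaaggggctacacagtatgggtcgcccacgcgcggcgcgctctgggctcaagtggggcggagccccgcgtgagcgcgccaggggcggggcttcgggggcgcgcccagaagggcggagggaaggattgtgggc
Efna4: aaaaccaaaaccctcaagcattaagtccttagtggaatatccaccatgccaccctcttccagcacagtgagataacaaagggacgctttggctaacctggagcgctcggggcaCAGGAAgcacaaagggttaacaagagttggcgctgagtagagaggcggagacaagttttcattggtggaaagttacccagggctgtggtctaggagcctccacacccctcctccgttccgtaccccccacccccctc
Epha4: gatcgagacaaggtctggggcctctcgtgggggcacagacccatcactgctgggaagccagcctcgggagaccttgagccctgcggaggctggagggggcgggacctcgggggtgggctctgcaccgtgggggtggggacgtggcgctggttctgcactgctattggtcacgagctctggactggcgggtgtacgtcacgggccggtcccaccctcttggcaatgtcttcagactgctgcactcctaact

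Upstream stretches of the same length were taken for all 10 members and for 27025 genes, each at its outermost annotated start. CAGGAA was present in 4 of the 10, those of Efna1, Efna4, Epha1 and Epha2, and in 25.4% of all genes. CCGGAA was present in 0 of the 10 and in 12.3% of all genes. GGTGTGA was found in 1, that of Efna1, against 3.31% of all, and CTTTGA in 1, that of Epha2, against 14.1%. The E-box letters CANNTG, not marked in the sequences, were found in 2, those of Efna3 and Epha1, against 66.1%. These are matches of letters in short windows, and they say nothing about whether a factor binds.

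Efna3, a ligand of EphA4 in the mouse hippocampus, differed most among the ligands. It measured 7.28 and 7.08 in the Etv2-positive cells, against 8.86 and 8.15 in the Etv2-negative cells. The gap between the groups was 0.88, wider than the distance of 0.71 between the Etv2-negative arrays, which was the larger of the distances within a group. The difference was -1.33 (SE 0.25, 95% interval -2.0 to -0.66, n = 2 arrays per group), or 2.51-fold lower, with a limma adjusted p of 0.148. Its second probe set gave 6.38 and 6.08 in the Etv2-positive cells, against 8.03 and 7.46 in the Etv2-negative cells, a difference of -1.51. Leaving out each array in turn moved the difference of the chosen probe set between -1.68 and -0.98.

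Efna4, a ligand linked in humans to the coronal suture of the skull, had 8.0 and 7.83 in the Etv2-positive cells, against 8.73 and 8.65 in the Etv2-negative cells. Arrays of a group lay within 0.18 of each other, and the groups were 0.64 apart. The difference was -0.77 (SE 0.11, 1.71-fold lower, limma adjusted p = 0.0955), and the gene has 1 probe set. Efna1, the main ligand of EphA2 and first found as a gene that TNF induces in endothelial cells, had 5.78 and 6.18 in the Etv2-positive cells, against 6.57 and 6.79 in the Etv2-negative cells. Its groups were 0.39 apart, about as far as the Etv2-positive arrays were from each other (0.40), and the difference was -0.70 (SE 0.17, 1.62-fold lower, limma adjusted p = 0.226). The second probe set of Efna1 was tighter, at 5.08 and 5.11 in the Etv2-positive cells, against 5.70 and 5.71 in the Etv2-negative cells, a difference of -0.61.

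Efna5 and Efna2, which guide retinal axons in the mouse brain, differed less. Efna5, which also binds the B-class receptor EphB2, had 8.75 and 8.86 in the Etv2-positive cells, against 9.10 and 9.18 in the Etv2-negative cells, a difference of -0.34 (SE 0.10, 95% interval -0.59 to -0.08, limma adjusted p = 0.294). Its second probe set, with a mean of 4.60 over the arrays, ran the other way at 0.22, with groups that overlapped, and the average over both gave -0.06, so the size for Efna5 rests on the chosen probe set. Efna2 had 8.37 and 8.31 in the Etv2-positive cells, against 8.68 and 8.49 in the Etv2-negative cells, a difference of -0.24 (SE 0.11, 95% interval -0.52 to 0.04, limma adjusted p = 0.489). The groups of Efna2 were apart by 0.12, which is less than the 0.19 between its Etv2-negative arrays, and its second probe set gave -0.25.

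Efna1, Efna3 and Efna4 follow one another on mouse chromosome 3, with 0 other protein-coding genes and 4 lncRNA genes between Efna1 and Efna4 in the GRCm38.p6 annotation. Efna2 lies on chromosome 10 and Efna5 on chromosome 17. Of the 6 protein-coding genes on each side of the cluster, 11 of 12 were measured, and their differences ran from -0.37 for Thbs3 to 0.11 for Dcst2. The nearest genes, Slc50a1 beside Efna1 and Adam15 beside Efna4, differed by -0.14 (SE 0.09) and 0.10 (SE 0.10). Among the 11 neighbours, 2 had arrays apart in the lower direction (17% of all genes) and 1 in the higher direction (22.4% of all genes). Each of the 3 ephrins was further from 0 than any measured neighbour, but the intervals are not separate. That of Thbs3, -0.92 to 0.18, overlaps those of all 3 ephrins, and that of Efna1 also overlaps those of Trim46, Dcst1 and Dcst2 among others. The difference between the ephrins and their neighbours was not tested.

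**Figure D2:**
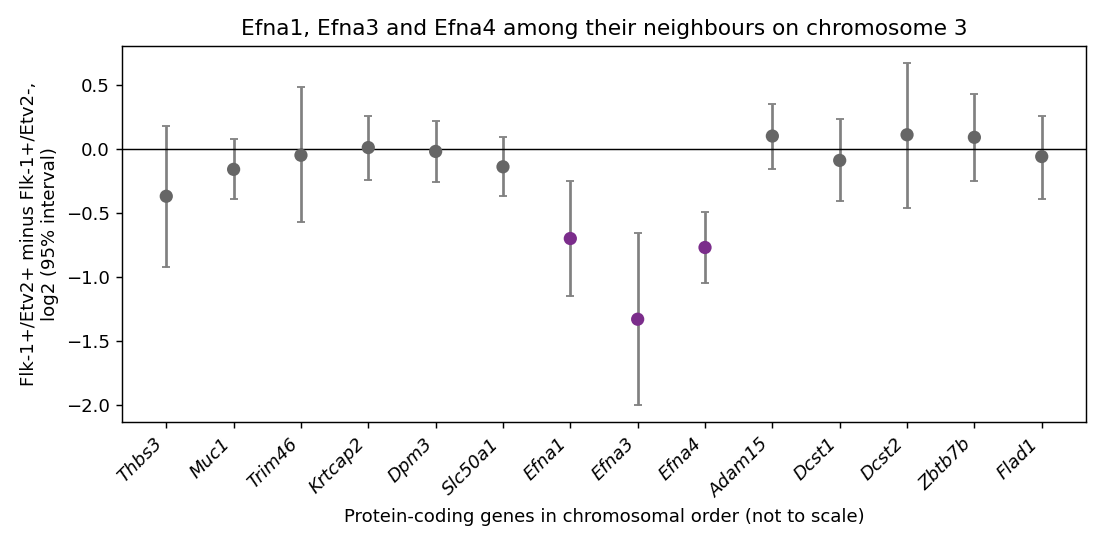
Difference in log2 expression, Flk-1+/Etv2+ minus Flk-1+/Etv2-, with 95% intervals of the limma fit, for the 3 ephrin genes (purple) and their measured protein-coding neighbours (grey) in chromosomal order. The ephrins stand at -0.70, -1.33 and -0.77, and the neighbours lie between -0.37 and 0.11.

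Epha4, a receptor that binds both classes of ephrin and marks segment boundaries in the hindbrain and somites, had the smallest error among the larger differences. It measured 7.56 and 7.41 in the Etv2-positive cells, against 8.62 and 8.55 in the Etv2-negative cells. The groups were 0.99 apart, while arrays of a group lay within 0.16. The difference was -1.10 (SE 0.10, 95% interval -1.37 to -0.83, 2.14-fold lower), and by moderated t it ranked 12 among the 18193 genes in the lower direction, with a limma adjusted p of 0.067. When the limma fit allowed the variance to follow the mean and was robust to outlying genes, Epha4 was called lower (adjusted p = 0.0391), as were 0.17% of all genes. It was also called among genes with a mean of at least 6 (limma adjusted p = 0.0429), where 0.128% of genes were called lower.

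Epha4 has 5 probe sets, of which 4 differed by about the same amount, from -0.96 to -1.10. The dimmest of these 4 has a suffix (_s_at) that marks probes shared between transcripts. The second in brightness gave 6.68 and 6.57 in the Etv2-positive cells, against 7.57 and 7.60 in the Etv2-negative cells. The third and the fourth in brightness also separated the arrays by their number. The third gave 5.48 and 6.89 in the Etv2-positive cells, against 6.61 and 7.91 in the Etv2-negative cells, and the fourth gave 4.72 and 5.86 against 5.72 and 6.84. On both, the array numbered 1 was lower than the array numbered 2 by 1.12 to 1.41 in each population, so the groups overlapped, and the difference between populations was still -1.08 and -0.99. Such a shift of over 1 log2 unit in both populations was found for 1.08% of all probe sets on the array. The dimmest probe set stood near the bottom of the scale at 2.90 and gave -0.12.

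**Figure D3:**
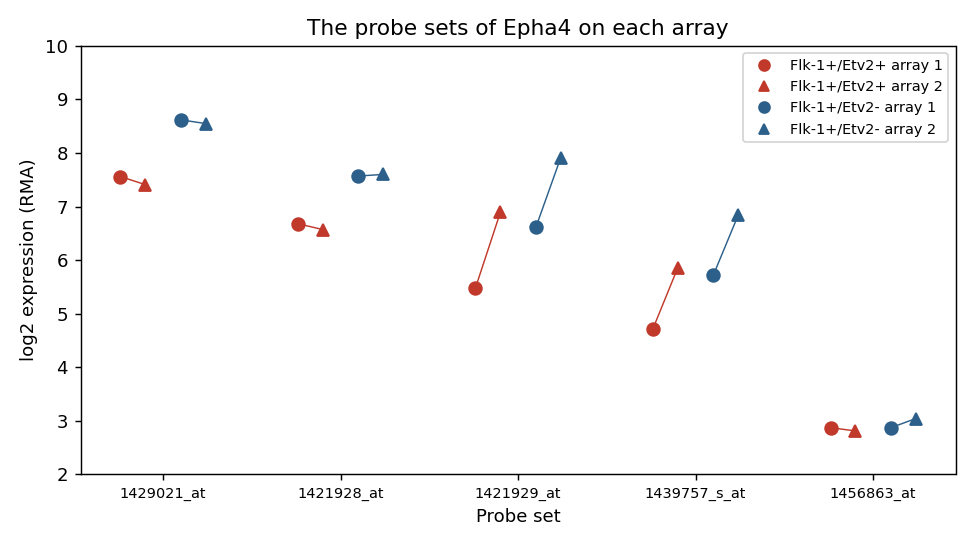
Log2 expression of the 5 probe sets of Epha4 on each array, Flk-1+/Etv2+ in red left of Flk-1+/Etv2- in blue, with circles for array 1, triangles for array 2 and lines joining the arrays of a group. Those with a mean of 6.72 and 5.79 are over 1 log2 unit lower on array 1 in both groups, and the first 4 are lower in the Flk-1+/Etv2+ cells by 0.96 to 1.10.

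A control for RNA quality also moved with the array number. The 3′ minus 5′ signal of Tfrc, where a larger value means less signal from the 5′ end, was 1.91 and 1.21 in the Etv2-positive cells, against 1.46 and 0.85 in the Etv2-negative cells, so it was higher on array 1 in each population. That of Pcx was 0.92 and 0.58 against 1.06 and 0.85, and that of Gapdh stayed between -0.04 and 0.00. That of Actb was 0.47 and 0.51 in the Etv2-positive cells, against 0.41 and 0.40 in the Etv2-negative cells, with no order by array number shared by both populations. Tfrc was thus also higher in the Etv2-positive cells within each array number, and Pcx lower. Their part in the array shift of the Epha4 probe sets, or in the differences between populations, was not tested.

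Epha1, the receptor that founded the family, varied most between arrays of a group among the chosen probe sets of the members. It measured 5.96 and 5.11 in the Etv2-positive cells, against 7.19 and 6.46 in the Etv2-negative cells. Array 1 was higher by 0.85 in the Etv2-positive and by 0.73 in the Etv2-negative cells, more than the gap of 0.50 between the groups. The difference was -1.29 (SE 0.38, 95% interval -2.28 to -0.30, 2.44-fold lower, limma adjusted p = 0.300), and without one array it lay between -1.71 and -0.86. Its other probe sets were dim and disagreed, at 0.25 (mean 4.61) and -0.25 (mean 3.50), and the average over the 3 gave -0.43, so the size for Epha1 rests on the chosen probe set.

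Epha7, a guidance receptor that acts with ephrin-A5 in neural tube closure in the mouse, had 6.22 and 6.0 in the Etv2-positive cells, against 6.94 and 6.75 in the Etv2-negative cells. The groups were 0.53 apart with arrays within 0.21, and the difference was -0.73 (SE 0.13, 1.66-fold lower, limma adjusted p = 0.129). A second probe set gave -0.39 with arrays apart. The dimmer ones gave 0.15 and -0.07 at means of 5.28 and 3.23, so the average over the 4 was -0.26.

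Epha2 and Epha3 were the members whose groups overlapped. Epha2, an epithelial receptor that is also expressed in the gastrulating mouse embryo, had 7.85 and 7.37 in the Etv2-positive cells, against 7.98 and 7.52 in the Etv2-negative cells. Array 1 was higher by 0.48 and 0.47, while the populations differed by -0.14 (SE 0.24, limma adjusted p = 0.902). The 95% interval, -0.76 to 0.48, includes a difference as large as that of Epha7, so the data do not show that Epha2 was alike in the populations. Epha3, a receptor needed for the heart cushions of the mouse, was at 3.10 and 2.99 in the Etv2-positive cells, against 3.32 and 2.89 in the Etv2-negative cells. Only 8.58% of all probe sets had a lower mean, its 4 probe sets all had means from 2.61 to 3.08, and its difference of -0.06 (95% interval -0.50 to 0.39) therefore concerns signal near the bottom of the scale. Detection calls were not used here, so whether Epha3 was expressed was not determined.

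The 26 probe sets were also read by brightness. Most of the brighter ones are those on which the genes were chosen for their difference, so a link between brightness and sign was largely fixed by the choice, and nothing is read from it. All 13 whose mean reached 6 log2 units were lower in the Etv2-positive cells, 11 of them with arrays apart, the exceptions being the probe set of Epha2 and the third brightest of Epha4. Of these, 9 were the chosen probe sets, and the 4 others belonged to Efna2, Efna3 and Epha4. Among the 13 dimmer ones, 9 were at or below 0 and 4 above, and those above belonged to Efna5, Epha1, Epha3 and Epha7. The dim probe sets include 3 with arrays apart and lower, of Efna1, Epha4 and Epha7, and 1 with arrays apart and higher, of Epha1. Shares over all probe sets are not given here. Over all genes, each read on 1 probe set, arrays were apart downward for 17% and upward for 22.4%. Where the gene's mean reached 6, they were apart downward for 17.8%.

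**Figure D4:**
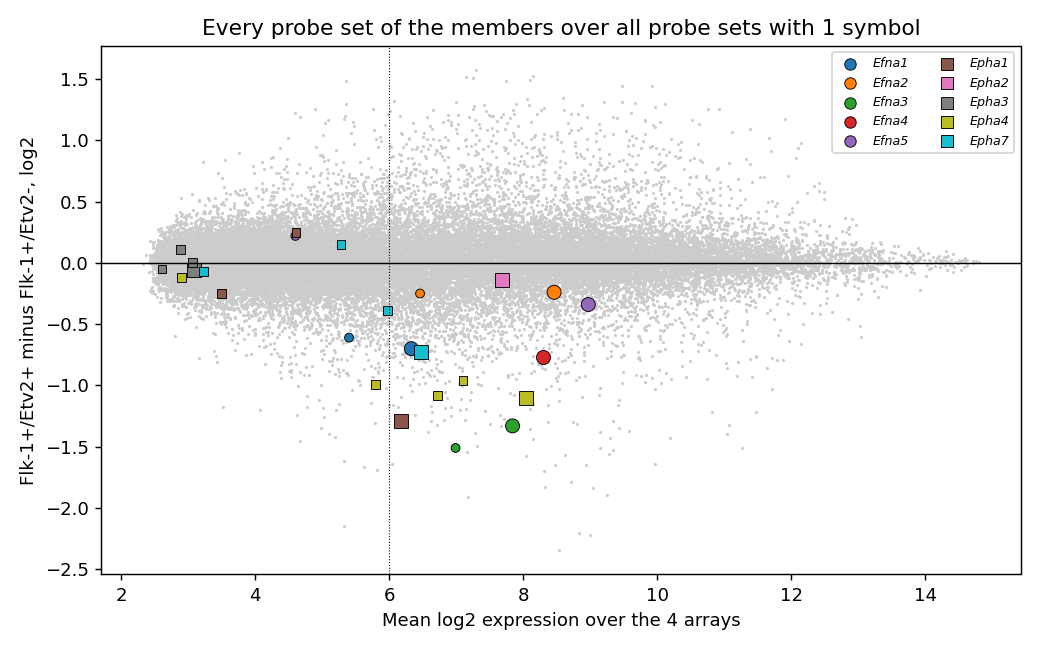
Difference in log2 expression, Flk-1+/Etv2+ minus Flk-1+/Etv2-, against the mean over the 4 arrays for the 26 probe sets of the members (circles for ephrins, squares for receptors, large symbols for the chosen probe sets) and for all probe sets with 1 symbol (grey). Right of the dotted line, at a mean of 6, all 13 member probe sets lie below 0.

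The remaining A-class receptors, Epha5, Epha6, Epha8 and Epha10, had means under 6 on every array and differences from -0.12 to -0.01, with arrays that overlapped for all 4. Epha5 and Epha6 stood low on the scale, at 3.46 and 2.89 in the Etv2-positive cells, against 3.58 and 2.94 in the Etv2-negative cells. Epha8 and Epha10 were nearer the array medians of 5.46 to 5.52, at 4.78 and 5.59 in the Etv2-positive cells, against 4.80 and 5.60 in the Etv2-negative cells, and differed by -0.01 each (95% intervals -0.29 to 0.26 and -0.32 to 0.30).

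In the B class, which meets the A class through EphA4 and ephrin-A5, 7 of 8 genes were measured and Ephb2 was not analysed here. No gene was called by limma (0% of all genes in either direction). The genes went both ways, with 4 below 0 and 3 above, where 47% and 52.9% of all genes were. At an unadjusted limma p under 0.05, 3 were lower and 0 higher, against 4.64% and 7.07% of all genes. Both Etv2-positive arrays lay below both Etv2-negative arrays for 4 of the 7 (Efnb1, Efnb3, Ephb3 and Ephb6), against 17% of all genes. They lay above for 1 of the 7 (Efnb2), against 22.4%. Efnb1 and Efnb3, ligands with a transmembrane segment, had 7.69 and 7.65, and 7.86 and 7.79, in the Etv2-positive cells, against 8.24 and 8.27, and 8.52 and 8.30, in the Etv2-negative cells. Both differed by -0.59 (SE 0.09 and 0.11), and their arrays were apart. Efnb2, the ligand of arterial endothelium, had 10.82 and 11.00 in the Etv2-positive cells, against 10.74 and 10.70 in the Etv2-negative cells (difference 0.19, SE 0.10), and its receptor Ephb4, of venous endothelium, differed by 0.10 (SE 0.10). Ephb1 stood at 0.26 (SE 0.18), Ephb3 at -0.40 (SE 0.12) and the kinase-inactive Ephb6 at -0.37 (SE 0.19). The largest difference of this class, -0.59, was smaller than those of 6 A-class members, and the difference between the classes was not tested. With the mean over probe sets Efnb1 differed by -0.69, further from 0 than Efna1 (-0.66), Epha1 (-0.43) and Epha7 (-0.26). Efna3 (-1.42), Epha4 (-0.85) and Efna4 (-0.77) were still further from 0 than Efnb1. Since the A-class members were picked with their differences known, nothing is read from either order.

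**Figure D5:**
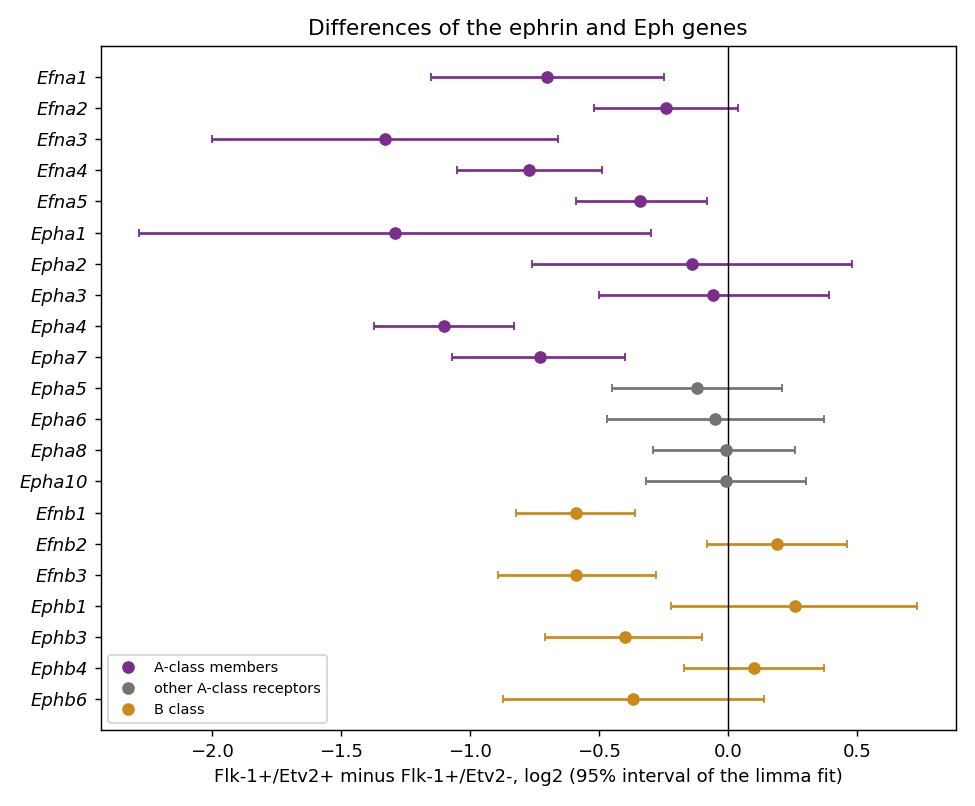
Difference in log2 expression, Flk-1+/Etv2+ minus Flk-1+/Etv2-, with 95% intervals of the limma fit, for the A-class members (purple), the other A-class receptors (grey) and the B class (orange). All members stand left of 0, Efna3, Epha1 and Epha4 furthest, while Efnb2, Ephb1 and Ephb4 stand right of 0.

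Genes known to act with or after Eph receptors were more often above than below 0. Of 47 listed, 43 were measured, with a median difference of 0.08 against 0.01 over all genes, 31 above 0 and 12 below, where 52.9% of all genes were above and 47% below. Limma called 0 of them higher (0% of all genes) and 0 lower (0%), and at an unadjusted p under 0.05 there were 7 higher and 0 lower, against 7.07% and 4.64% of all genes. For 20 of the 43 genes both Etv2-positive arrays lay above both Etv2-negative arrays, against 22.4% of all genes. They lay below for 4 of the 43, against 17% of all genes. At least 2-fold higher were 2 genes, Vav3 and Arhgef15, against 0.599% of all genes. The list was chosen with earlier results of these data known, so nothing is read from these shares.

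Vav3, which links EphA receptors to Rac, had 9.71 and 9.66 in the Etv2-positive cells, against 8.61 and 8.59 in the Etv2-negative cells, a difference of 1.08 (SE 0.09, limma adjusted p = 0.067) on a probe set whose suffix (_s_at) marks probes shared between transcripts. Arhgef15, an exchange factor that binds Eph receptors, had 6.99 and 7.34 against 5.80 and 6.15, a difference of 1.19 (SE 0.18, limma adjusted p = 0.107). Tiam1, a Rac activator, had 11.58 and 11.52 in the Etv2-positive cells, against 10.93 and 10.81 in the Etv2-negative cells, a difference of 0.68 (SE 0.10, limma adjusted p = 0.097). With the mean over probe sets the difference of Tiam1 was 0.11 and that of Arhgef15 was 0.74, while that of Vav3 was 1.07. For these genes the groups did not overlap. Vav3 and Tiam1 were called higher by the trend fit (limma adjusted p = 0.039 and 0.0491), as were 0.445% of all genes, and Vav3 also among genes with a mean of at least 6, where 0.648% were called higher. Yes1, a Src family kinase, differed by 0.60 (SE 0.09), Adam10, a protease that cuts ephrin-A from the cell surface, by 0.38 (SE 0.09, and 0.24 with the mean over probe sets), and Chn1, a Rac inhibitor that acts after EphA4, by 0.37 (SE 0.09).

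The genes with values most like the members furthest from 0 were sought among 10178 others with a mean of at least 6, by the distance between values centred on each gene's own mean over the 4 arrays. For Efna3 these were Olfm1 (distance 0.169), Wnt5b (0.194), Prss22 (0.198), Msx2 (0.228) and Cacna2d2 (0.293). For Epha1 they were Tdgf1 (0.069), Cdh11 (0.103), Pou5f1 (0.140), Cntnap2 (0.196) and Tiam2 (0.237). Tdgf1, the Nodal co-receptor, had 11.28 and 10.43 in the Etv2-positive cells, against 12.45 and 11.71 in the Etv2-negative cells, with array 1 higher in both populations as for Epha1. The pattern covers only 4 values per gene, so likeness describes these arrays alone.

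The genes of the sort and markers of cell types were read on the same arrays. Etv2 had 12.64 and 12.41 in the Etv2-positive cells, against 12.03 and 11.87 in the Etv2-negative cells, a difference of 0.57 (SE 0.13, limma adjusted p = 0.185). Its signal was thus far above the array medians in both populations, and positive and negative here name the reporter of the sort. Kdr differed by 0.13 (SE 0.12), and Pdgfra, a receptor of early mesoderm, by -1.65 (SE 0.38). Markers of primitive streak and nascent mesoderm were below 0 for 10 of 10 genes, with a summed linear level of 7525 and 5683 in the Etv2-positive cells, against 16950 and 11662 in the Etv2-negative cells. Paraxial and presomitic markers were below 0 for 7 of 8 (1290 and 1195 against 3397 and 3915) and lateral plate markers for 7 of 7 (4440 and 4548 against 8055 and 7460). Epithelial and endoderm markers were below 0 for 6 of 7 (5834 and 5260 against 9461 and 8040) and epiblast markers for 6 of 7 (3421 and 3420 against 4542 and 4115). A sum is set mostly by its brightest genes, such as Dnmt3b for the epiblast sum (difference -0.20), and Krt8 and Krt18 for the epithelial sum. Endothelial markers were above 0 for 9 of 10, at 5974 and 6230 in the Etv2-positive cells, against 2911 and 3167 in the Etv2-negative cells, with Emcn near the bottom of the scale. Blood markers were above 0 for 6 of 8 (1020 and 1111 against 755 and 876), with Ptprc near the bottom, and neural markers for 4 of 6 (944 and 718 against 1504 and 971, so the sum ran the other way).

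Stromal markers, which OP9 cells would carry, were below 0 for 6 of 8 measured and summed to 1486 and 686 in the Etv2-positive cells, against 1796 and 938 in the Etv2-negative cells, with Lum and Postn near the bottom of the scale. These sums, like those of the streak, epithelial and neural markers, were higher on array 1 in both populations. Among the stromal genes, Col1a2 and Col3a1 carried most of that shift, and Cxcl12 was lower on array 1 in both. Of the epiblast genes, Dnmt3b was lower on array 1 in both populations and the others were higher, Nanog most, by 1.35 and 1.55. On the chosen probe sets, the levels of all members but Efna1 and Efna5 were also higher on array 1 in both populations. They were higher by 0.85 and 0.73 for Epha1, by 0.48 and 0.47 for Epha2, and by 0.06 to 0.71 for the others. Efna1 and Efna5 were lower on array 1 in both. Other probe sets did not always keep this order, and 2 of Epha4 were lower on array 1 by 1.12 to 1.41. The share of all genes higher on array 1 in both populations is not given here, so nothing is read from the number of members. The part of these markers in the ephrin and Eph differences was not tested.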

How the data were processed

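RNA of the 4 sorted samples was biotin-labelled from the 3′ end for Affymetrix arrays, per the labels' protocols. The authors deposited RMA values on a log2 scale, 1 per probe set (R 2.8.0 is named in the submitters' processing notes). They span 2.16 to 14.93, from which the log base was inferred. RMA compresses differences near background, and scanner files and detection calls were not used here. The number of arrays, 2 per group, limits the precision.

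Groups and array numbers came from the sample titles. Gene names came from the platform annotation: of 45101 probe sets 34945 had 1 symbol, 932 several and 9160 none listed, and 64 were controls. Entrez identifiers matched 34741 to RefSeq genes of GRCm38.p6 (0 symbols changed).

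A moderated linear model (limma 3.58.1, lmFit then eBayes, under R 4.3.3) compared the populations, with group as the only term, 2 residual and 2.68 prior degrees of freedom, two-sided, adjusted by the Benjamini-Hochberg method over 18193 genes. The step was tested on simulated data. The members, the lists, the tests and the rule for named genes were chosen with earlier results of these data known. The rule names the members, the other A-class receptors, the B class, Etv2, Kdr and Pdgfra, the 6 genes of the Eph signalling list with the smallest p, and the 5 genes most like each of the 2 members that differed most. Neighbours on chromosome 3 were named after their values were seen. Promoters are RefSeq windows, with all 10 members matched by symbol. Alternatives were every probe set, the mean over probe sets, only genes whose mean reached 6, a variance trend with robust estimation, repeated quantile normalization, median centring, a block for the array number, and the omission of each array.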

Additional observations from a re-analysis of the deposited data

How the results depend on the processing

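Efna1 to Efna5, Epha1, Epha4 and Epha7 kept a lower mean in the Etv2-positive cells under all 12 alternatives. The fit over every probe set, the filter on the mean, the variance trend and the blocks left each of these differences as it was. No sign could turn there. Nor could one turn when an array was left out, since both Etv2-positive arrays of these genes lay below both Etv2-negative arrays. The median of the members moved to -0.34 with the mean over probe sets, and stayed between -0.70 and -0.66 without one array. Limma called 79 genes, 1 member (Epha4) and 1 gene of the Eph signalling list among genes with a mean of at least 6, and 112 genes, 1 member (Epha4) and 2 listed genes (Vav3 and Tiam1) with the variance trend and robust estimation. With the array number as a block limma called 0 genes and 0 members, and with the block together with the trend and robust estimation it called 977 genes, 6 members (Efna1, Efna3, Efna4, Epha1, Epha4 and Epha7), 8 genes of the signalling list and 2 of the B class, where 1.98% of all genes were called lower and 3.39% higher. The deviations of same-numbered arrays from their group means correlated at 0.543 over genes, but the labels do not say what a number shares, so the block stays an alternative. Other settings called 0 genes, as did leaving out each array, which leaves a group with 1 array assumed to vary like the other. The cause of these changes was not tested.

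Differences near 0 changed sign. Epha3 gave 0.00 with the mean over probe sets, Epha8 0.01 and 0.03 and Epha10 0.04 and 0.03 with repeated quantile normalization and with median centring. Without one array, Epha2 lay between -0.38 and 0.10, Epha3 between -0.27 and 0.16, Epha6 between -0.22 and 0.12, Epha8 between -0.10 and 0.08 and Epha10 between -0.13 and 0.11. Epha2 turned above 0 without array 2 of the Etv2-positive cells (0.10) or array 1 of the Etv2-negative cells (0.09). Background signal limits what can be said of Epha3, Epha5 and Epha6.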
